A study of Mus musculus with 8 samples.

Results

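Metallothioneins and the transporters that move zinc across membranes were followed in islets that overexpress UCP2, the mitochondrial carrier uncoupling protein 2. The 9 genes were *Mt1*, *Mt2*, *Mtf1*, *Slc30a1*, *Slc30a5*, *Slc30a7*, *Slc39a6*, *Slc39a14* and *Slc39a7*, and every probe that the deposited table assigns to one of these symbols was taken. This gave 9 of the 26894 gene symbols and 15 of the 56605 probes on the array. The 9 genes were listed by name with earlier results of these data known, so the direction they share is a description. Islets came from 4 βUCP2Tg samples and 4 WT samples, all male. In βUCP2Tg mice a rat *Ins2* promoter drives the mouse *Ucp2* cDNA, joined to an intron of rabbit β-globin, so that the transgene is aimed at β-cells, and the line was bred onto C57BL6/J. WT mice were littermates without the transgene. The methods give an age of 8 to 20 weeks for mice of this line and of 8 to 12 weeks for islet isolation. Islets of both genotypes were kept for 8 h in RPMI medium with 200 mg/dL glucose before RNA was extracted, and Cy3-labelled RNA was applied to one-colour Agilent mouse arrays. Whether each sample was 1 mouse or a pool was not given in the sources used here, so p values measure the spread between these samples, which may be technical.

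Zinc is held in the cytosol at a very low free level. Metallothioneins are small cysteine-rich proteins that bind it, ZnT carriers (the Slc30 family) move it out of the cytosol into organelles or out of the cell, and ZIP carriers (the Slc39 family) move it into the cytosol. The transcription factor MTF1 senses zinc and binds metal response elements, short motifs in the promoters of *Mt1*, *Mt2* and *Slc30a1*. The β-cell is among the cells richest in zinc, since insulin is packed with zinc in its secretory granules, which are loaded by ZnT8 (*Slc30a8*).

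The sequence just before the start of *Mt1*, *Mt2* and *Slc30a1* is shown because these 3 genes are the textbook targets of MTF1 and because the probes with the lowest p among the 9 genes included theirs. The sequences are those of RefSeq (GRCm38.p6), 5′ to 3′, on the + strand, and cover the 250 bases before each gene's start at chr8:94178839-94179088 for *Mt1*, chr8:94172368-94172617 for *Mt2* and chr1:191906531-191906780 for *Slc30a1*. Capitals mark the letters TGCACNC or TGCGCNC, the core of the metal response element, on either strand.
Mt1: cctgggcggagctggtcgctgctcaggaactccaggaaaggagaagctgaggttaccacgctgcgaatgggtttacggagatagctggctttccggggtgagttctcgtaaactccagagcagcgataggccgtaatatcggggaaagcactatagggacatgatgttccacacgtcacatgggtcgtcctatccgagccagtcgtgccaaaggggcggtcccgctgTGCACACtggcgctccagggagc
Mt2: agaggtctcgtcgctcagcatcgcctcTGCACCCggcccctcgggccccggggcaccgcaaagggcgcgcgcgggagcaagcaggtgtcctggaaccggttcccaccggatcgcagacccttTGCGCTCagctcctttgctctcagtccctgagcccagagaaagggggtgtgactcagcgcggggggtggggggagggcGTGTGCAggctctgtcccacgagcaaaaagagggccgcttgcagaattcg
Slc30a1: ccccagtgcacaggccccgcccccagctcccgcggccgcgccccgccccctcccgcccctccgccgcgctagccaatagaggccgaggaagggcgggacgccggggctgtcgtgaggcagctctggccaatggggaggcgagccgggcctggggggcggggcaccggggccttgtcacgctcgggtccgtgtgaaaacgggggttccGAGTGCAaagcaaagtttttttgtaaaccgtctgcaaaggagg
*Mt1* and *Mt2* both lie on chromosome 8.

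The search was run over 300 bases, which add the first 50 bases after the start. *Mt2* held 4 matches, at -223 to -217, -128 to -122, -50 to -44 and 5 to 11 bases from its start, and 0.517% of the 32851 mouse promoter windows held at least as many. *Mt1* held 3 matches, 1 of them in the printed stretch at -23 to -17, and the others at 3 to 9 (TGCACTC) and 21 to 27 (TGCGCTC). At least 3 matches were present in 1.97% of the windows. *Slc30a1* held 2, both on the opposite strand, at -43 to -37 in the printed stretch and at 31 to 37. At least 2 matches were present in 7.11% of the windows. *Slc30a5* held a single match at -48 to -42, and 25.7% of the windows held at least 1. The windows of *Mtf1*, *Slc30a7* and *Slc39a7* held none, which says only that these letters are not in the window. *Slc39a6* and *Slc39a14* were not searched. A match of letters is a description and not a measured binding site.

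**Figure D1:**
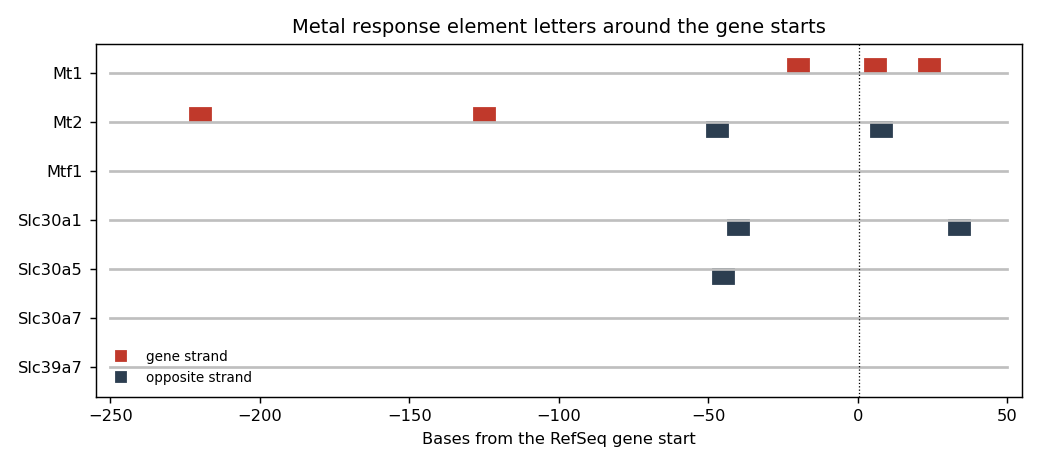
Positions of TGCACNC or TGCGCNC around the RefSeq start of the 7 genes searched. The horizontal axis gives bases from the start, boxes above a line are matches on the gene's own strand and boxes below it matches on the opposite strand, and *Mt2* has 4 boxes, *Mt1* 3, *Slc30a1* 2 and *Slc30a5* 1.

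The labels were checked first through *Ucp2*. Its probe A_51_P297105 averaged 7.92 on the βUCP2Tg arrays (SD 0.31) and 1.67 on the WT arrays (SD 0.25), and its other probe, A_52_P90265, averaged 1.39 and 0.94 (log2 difference 0.46, adjusted p = 0.103 by limma, not called), on the normalized log2 scale that is used for all values here (log2 of the background-subtracted spot intensity minus a constant of each array). Between 33191 and 36320 of the 56605 probes were well above background per array, and limma was run on the 35363 that reached this in 4 or more samples. Calls needed more than a 1.5-fold change together with an adjusted p below 0.05. Over all probes there were 141 calls (0.399%), of which 74 (0.209%) were higher and 67 (0.189%) lower with the transgene, and the median log2 difference was -0.01. Under normexp background correction there were 234 higher and 576 lower calls. The 8 arrays shared a slide on which each row held a single genotype, so that position and genotype cannot be told apart. The scanner software put 2 of its 10 quality metrics out of range on WT arrays 1 and 3. βUCP2Tg array 4 and WT array 1 stood apart from the rest of their group in several of the results below. All 9 genes of the β-cell marker list were measured, 5 with a lower and 4 with a higher mean in βUCP2Tg islets, and the list mean ran from 5.53 to 5.87 on the βUCP2Tg arrays and from 5.47 to 6.01 on the WT arrays.

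All 15 probes of the 9 genes were well above background on all 8 arrays, and all 15 had a lower mean in βUCP2Tg islets. By limma, 0 of the 15 were called, against 0.189% of all probes called as lower. At an unadjusted p under 0.05, 6 of the 15 were lower (2 probes of *Mt1* and 1 probe each of *Mt2*, *Mtf1*, *Slc30a1* and *Slc39a6*) and 0 were higher, against 14.1% and 10.6% of all probes. The methods' t-test on the same values called 0 of the 15 after Benjamini-Hochberg adjustment and 3 without it, beside 7.88% of all probes. On 3 of the 15 probes every βUCP2Tg array was below every WT array, which 6.53% of all probes showed, and 0 of the 15 were separated the other way, which 5.53% showed. The median log2 difference over the 15 probes was -0.14, beside -0.01 over all probes tested. With single arrays left out, 3 of the 15 were called without βUCP2Tg array 4 and 4 without WT array 1, settings under which 4.02% and 10.9% of all probes were called, and 0 without any of the other 6 arrays, where at most 0.0745% of all probes were called. Probes of 1 gene share its transcripts and are not independent. In these whole-islet samples, fewer cells of a type and less RNA per cell cannot be told apart.

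**Figure D2:**
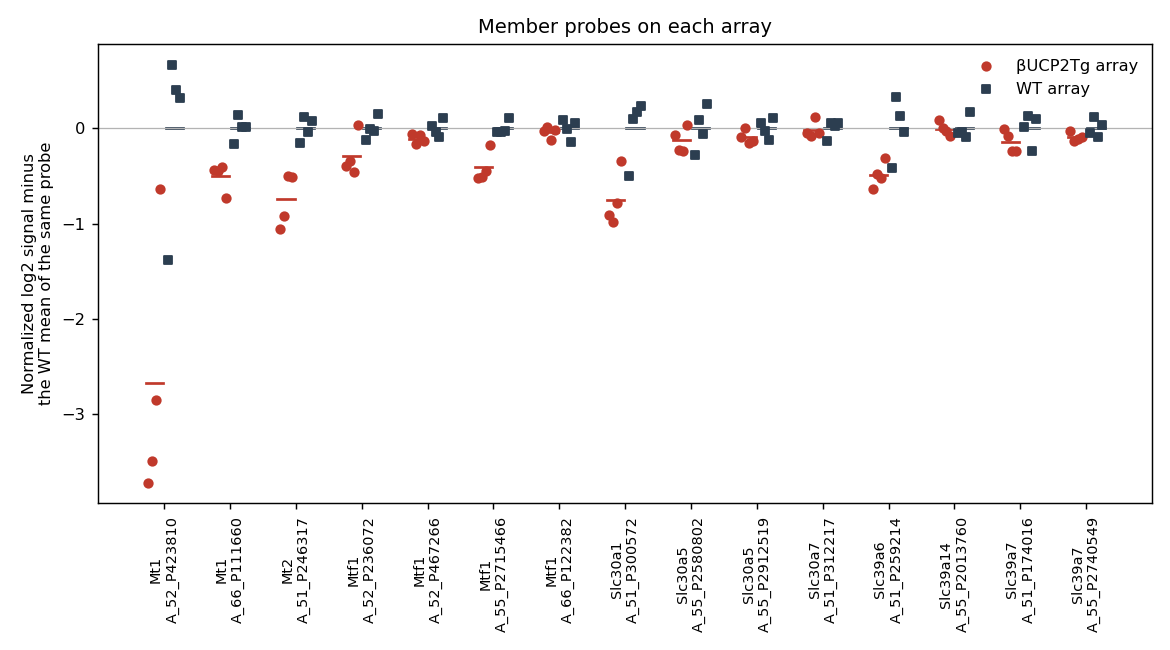
Normalized log2 signal of the 15 probes on each array, as the difference from the WT mean of the same probe. Circles are βUCP2Tg arrays, squares are WT arrays and short lines are group means (n = 4 each); the βUCP2Tg mean lies below the WT mean for all 15 probes, and the groups are separated only for *Mt1* A_66_P111660, *Mt2* A_51_P246317 and *Mtf1* A_55_P2715466.

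*Mt2*, which encodes one of the widely expressed metallothioneins, had the lowest p of the 15 probes. On its only probe (A_51_P246317) the normalized log2 signal was 7.39, 7.53, 7.95 and 7.94 on βUCP2Tg arrays 1 to 4 and 8.30, 8.56, 8.41 and 8.52 on WT arrays 1 to 4. All βUCP2Tg arrays were lower than all WT arrays, with a gap of 0.35 between the highest βUCP2Tg array and the lowest WT array. βUCP2Tg islets averaged 7.70 ± 0.28 (SD, n = 4), and WT islets averaged 8.45 ± 0.12 (SD, n = 4). The log2 difference was -0.75 (standard error 0.15, 95% interval -1.09 to -0.40), and WT islets were 1.68-fold brighter. Its adjusted p by limma was 0.0710, so *Mt2* was not called. The two-sided exact permutation test gave p = 0.0286, which is the smallest value that 4 arrays against 4 allow. Without βUCP2Tg array 4 the log2 difference was -0.82 (adjusted p = 0.0374 by limma), and without WT array 1 it was -0.80 (adjusted p = 0.0245 by limma), both past the threshold. Without each of the other 6 arrays in turn it was between -0.83 and -0.64 and not called (adjusted p from 0.110 to 0.229 by limma). *Mt2* was also past it under limma with an intensity trend (adjusted p = 0.0421) and under normexp background correction (-0.80, adjusted p = 0.0302 by limma).

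*Mt1*, which encodes the other widely expressed metallothionein, has 2 probes that behaved differently. The probe described by the table as the *Mt1* mRNA of RefSeq (A_66_P111660) was at 8.01, 7.99, 8.04 and 7.71 on βUCP2Tg arrays 1 to 4 and at 8.27, 8.59, 8.46 and 8.45 on WT arrays 1 to 4. The groups did not overlap, and the lowest WT array was 0.24 above the highest βUCP2Tg array. The log2 difference was -0.51 (standard error 0.11, 95% interval -0.76 to -0.25), which is 1.42-fold and under the fold limit, with an adjusted p of 0.0833 by limma. Without βUCP2Tg array 4, the lowest array, it was -0.43 (adjusted p = 0.0604 by limma), and without WT array 1 it was -0.56 (adjusted p = 0.0238 by limma), still under the fold limit. The probe described through an Ensembl transcript of *Mt1* (A_52_P423810) was at -0.32, -0.09, 0.54 and 2.75 on the βUCP2Tg arrays and at 2.01, 4.06, 3.79 and 3.71 on the WT arrays. Here the groups overlapped, since βUCP2Tg array 4 was above WT array 1, and the other 3 arrays of each genotype were far apart. The mean was 0.72 ± 1.41 (SD, n = 4) against 3.39 ± 0.94 (SD, n = 4), a log2 difference of -2.67 (standard error 0.72, 95% interval -4.31 to -1.03; adjusted p = 0.0977 by limma). This was the widest difference among the 15 probes and also the least precise. Leaving out βUCP2Tg array 4 gave -3.35 (adjusted p = 0.0247 by limma) and leaving out WT array 1 gave -3.13 (adjusted p = 0.0289 by limma), both past the threshold. The 2 probes of *Mt1* did not follow each other within the genotypes (r = -0.25 over the deviations of 8 arrays from their group means, as a description). βUCP2Tg array 4 was the lowest of the 8 arrays on the first probe and the highest βUCP2Tg array on the second. Which exons the probes lie in was not determined here.

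*Mtf1*, which encodes the zinc-sensing transcription factor, has 4 probes. A_55_P2715466 was at -1.96, -1.94, -1.88 and -1.61 on βUCP2Tg arrays 1 to 4 and at -1.48, -1.47, -1.47 and -1.33 on WT arrays 1 to 4. The groups did not overlap, with a gap of 0.13, and the log2 difference was -0.41 (standard error 0.11; adjusted p = 0.0944 by limma; 1.33-fold). Without βUCP2Tg array 4 it was -0.49 (adjusted p = 0.0388 by limma) and without WT array 1 it was -0.43 (adjusted p = 0.0469 by limma), both under the fold limit. A_66_P122382 ran from 2.87 to 3.01 on the βUCP2Tg arrays and from 2.85 to 3.08 on the WT arrays. Its groups lay over each other, and the log2 difference was -0.04 (95% interval -0.25 to 0.17). The other 2 probes had log2 differences of -0.29 (A_52_P236072, adjusted p = 0.207 by limma) and -0.11 (A_52_P467266, adjusted p = 0.467 by limma). For A_52_P236072, on which βUCP2Tg array 4 lay within the WT arrays, the value was -0.40 without that array (adjusted p = 0.0674 by limma) and -0.33 without WT array 1 (adjusted p = 0.135 by limma). The probes of *Mtf1* thus disagreed in size, and the separated groups were seen on 1 of the 4.

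*Slc30a1* encodes ZnT1, the carrier that exports zinc through the plasma membrane. It was at -0.38, -0.46, -0.26 and 0.19 on βUCP2Tg arrays 1 to 4 and at 0.02, 0.62, 0.70 and 0.76 on WT arrays 1 to 4 (A_51_P300572). βUCP2Tg array 4 lay above WT array 1, as it did on the second *Mt1* probe, and the other 3 arrays of each genotype did not overlap. βUCP2Tg islets averaged -0.23 ± 0.29 (SD, n = 4), and WT islets averaged 0.53 ± 0.34 (SD, n = 4). The log2 difference was -0.75 (standard error 0.20, 95% interval -1.22 to -0.29), with WT islets 1.69-fold brighter and an adjusted p of 0.0982 by limma. The two-sided exact permutation test gave p = 0.0571. *Slc30a1* passed the threshold without βUCP2Tg array 4 (-0.89, adjusted p = 0.0474 by limma), without WT array 1 (-0.92, adjusted p = 0.0186 by limma) and under normexp background correction (-0.70, adjusted p = 0.0411 by limma).

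*Slc30a5* and *Slc30a7* encode ZnT5 and ZnT7, which carry zinc into the early secretory pathway. The probe A_55_P2912519 of *Slc30a5* ran from 1.81 to 1.97 on the βUCP2Tg arrays and from 1.84 to 2.07 on the WT arrays, a log2 difference of -0.09 (95% interval -0.30 to 0.12; adjusted p = 0.558 by limma). Its other probe (A_55_P2580802) differed by -0.13 (95% interval -0.43 to 0.18; adjusted p = 0.588 by limma). *Slc30a7* (A_51_P312217) was at 0.70, 0.67, 0.87 and 0.70 on βUCP2Tg arrays 1 to 4 and at 0.61, 0.80, 0.77 and 0.80 on WT arrays 1 to 4. The genotypes covered the same range, and the log2 difference was -0.01 with a 95% interval of -0.23 to 0.20 (adjusted p = 0.939 by limma). These intervals leave room for differences of that size in *Slc30a7* in either direction, and its sign turned when single arrays were left out.

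*Slc39a6* and *Slc39a14* encode ZIP6 and ZIP14, importers of the plasma membrane. *Slc39a6* (A_51_P259214) was at 2.42, 2.57, 2.53 and 2.74 on βUCP2Tg arrays 1 to 4 and at 2.63, 3.39, 3.18 and 3.02 on WT arrays 1 to 4. The only overlap was again βUCP2Tg array 4 above WT array 1. The log2 difference was -0.49 (standard error 0.16, 95% interval -0.87 to -0.11; adjusted p = 0.132 by limma), and the two-sided exact permutation test gave p = 0.0571. Without WT array 1 it was -0.63 (adjusted p = 0.0241 by limma) and past the threshold, and without βUCP2Tg array 4 it was -0.55 (adjusted p = 0.103 by limma) and not past it. *Slc39a14* (A_55_P2013760) was at 0.18, 0.09, 0.06 and 0.01 on βUCP2Tg arrays 1 to 4 and at 0.04, 0.05, -1.1e-05 and 0.26 on WT arrays 1 to 4. The genotypes overlapped. Its log2 difference was -0.003 (95% interval -0.22 to 0.21; adjusted p = 0.987 by limma), and its sign turned under quantile normalization and when some arrays were left out.

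*Slc39a7* encodes ZIP7, which releases zinc from the endoplasmic reticulum and Golgi into the cytosol. Its probe A_51_P174016 was at 6.74, 6.68, 6.52 and 6.51 on βUCP2Tg arrays 1 to 4 and at 6.77, 6.88, 6.52 and 6.85 on WT arrays 1 to 4. The groups overlapped through WT array 3, and the log2 difference was -0.14 (95% interval -0.40 to 0.12; adjusted p = 0.463 by limma). The other probe (A_55_P2740549) differed by -0.09 (95% interval -0.29 to 0.11; adjusted p = 0.546 by limma). For *Slc30a5*, *Slc30a7*, *Slc39a7* and *Slc39a14*, the secretory pathway carriers and ZIP14, the 95% intervals of all 6 probes included 0, and the lowest of their bounds was -0.43.

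The remaining metallothionein, Slc30 and Slc39 genes had differences in both directions. Of 20 such genes, 16 were tested on 24 of their 32 probes, and *Slc30a3*, *Slc30a10*, *Slc39a5* and *Slc39a12* were not well above background on any array. By limma 0 of the 24 probes were called (0 also by the methods' t-test after adjustment), while 6 were higher and 4 lower at an unadjusted p under 0.05, which 10.6% and 14.1% of all probes were. The groups did not overlap on 4 probes that were higher and 2 that were lower, beside 5.53% and 6.53% of all probes. The median log2 difference over the 24 probes was 0.17, against -0.14 for the 15 probes of the 9 genes, and whether the 2 sets differ was not tested.

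*Slc39a10*, which encodes the plasma membrane importer ZIP10, had the lowest p of all zinc genes. On the probe A_51_P223498 it was at -1.18, -1.02, -1.16 and -1.62 on βUCP2Tg arrays 1 to 4 and at -1.88, -2.73, -2.33 and -2.54 on WT arrays 1 to 4. Every βUCP2Tg array was above every WT array, so that its order was opposite to that of *Mt2*. The log2 difference was 1.13 (standard error 0.20, 95% interval 0.66 to 1.59), or 2.19-fold, with an adjusted p of 0.0574 by limma. It passed the threshold when only probes well above background on all 8 arrays were tested (adjusted p = 0.0453 by limma), without βUCP2Tg array 4 (1.25, adjusted p = 0.0290 by limma) and without WT array 1 (1.29, adjusted p = 0.0132 by limma). It was not called without any of the other 6 arrays. Under normexp background correction the log2 difference was smaller but past the threshold (0.65, adjusted p = 0.0297 by limma), and with the mean of the hypoxia list described below as a covariate it was 0.57 (adjusted p = 0.676 by limma). The second probe (A_65_P05446) differed by 0.85 with overlapping groups (adjusted p = 0.137 by limma), by 0.23 under normexp and by 0.10 with the hypoxia covariate.

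*Slc39a11*, which encodes ZIP11, had 2 tested probes with log2 differences of 0.36 and 0.32, both without overlap (adjusted p = 0.0977 and 0.105 by limma). *Slc39a2* differed by 0.51 (adjusted p = 0.0977 by limma; no overlap) and *Slc39a3* by 0.63 (adjusted p = 0.0999 by limma; overlapping). The 3 probes of *Slc39a9* disagreed in sign, with -0.38 on A_55_P1976102 (adjusted p = 0.114 by limma; no overlap), 0.23 on A_51_P482233 (adjusted p = 0.302 by limma) and 0.09 on A_51_P188023 (adjusted p = 0.791 by limma). Among the genes with lower means, *Slc30a4*, which encodes ZnT4, differed by -0.29 (adjusted p = 0.119 by limma; no overlap) and *Slc39a4*, which encodes ZIP4, by -0.78 (adjusted p = 0.126 by limma; overlapping), and these 2 genes were named after their values were seen. *Slc39a2*, *Slc39a3* and *Slc39a9* encode ZIP2, ZIP3 and ZIP9. *Slc39a2* differed by 0.015 under normexp background correction (adjusted p = 0.878 by limma). *Slc39a3* was past the threshold without WT array 1 (0.78, adjusted p = 0.0179 by limma) and under normexp (0.66, adjusted p = 0.0433 by limma), and differed by 0.15 with the hypoxia covariate (adjusted p = 0.954 by limma). *Slc30a8*, which encodes the granule carrier ZnT8, was at 6.67, 6.47, 6.40 and 6.31 on βUCP2Tg arrays 1 to 4 and at 6.75, 6.30, 6.31 and 6.67 on WT arrays 1 to 4. The genotypes overlapped, and the log2 difference of -0.05 (95% interval -0.37 to 0.28; adjusted p = 0.857 by limma) turned positive without βUCP2Tg array 4 (0.0033).

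**Figure D3:**
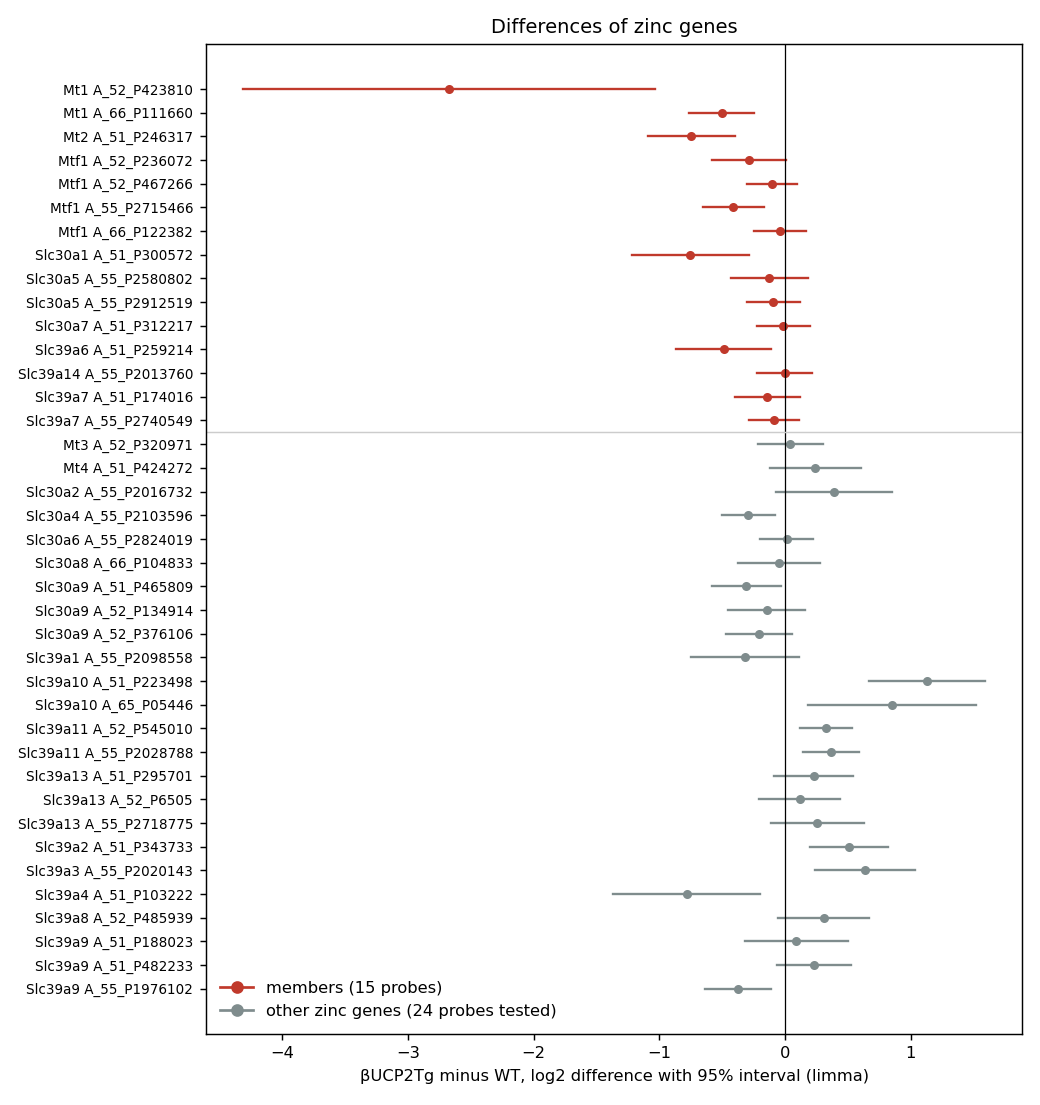
Log2 difference, βUCP2Tg minus WT, with its 95% interval by limma for the 15 probes of the 9 genes (red) and the 24 tested probes of the other zinc genes (grey). All 15 red points lie below 0, *Mt1* A_52_P423810 has the widest interval, and *Slc39a10* A_51_P223498 lies farthest above 0 at 1.13.

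Metallothionein genes are also known to respond to low oxygen, oxidative stress and glucocorticoids, and genes of these responses were read on the same arrays. Of 14 genes of the hypoxia response, 11 had a lower mean in βUCP2Tg islets, 0 were called by limma (15 of 23 probes were lower and 0 higher at an unadjusted p under 0.05, beside 14.1% and 10.6% of all probes), and the median log2 difference per gene was -1.21. The mean of this list was 1.57, 1.51, 1.53 and 2.80 on βUCP2Tg arrays 1 to 4 and 2.32, 3.12, 3.13 and 3.23 on WT arrays 1 to 4. It had the same order as *Slc30a1*, *Slc39a6* and the second *Mt1* probe in one respect, that βUCP2Tg array 4 was above WT array 1. Among its 3 genes of highest signal, *Ndrg1* had a log2 difference of 0.03, *Bnip3* of -1.52 and *Vegfa* of -0.27 (adjusted p = 0.907, 0.111 and 0.125 by limma). With the list mean as a covariate, a setting chosen after seeing the data, the log2 difference was -0.32 for the second *Mt1* probe, -0.15 for *Slc30a1*, -0.14 for *Slc39a6* and -0.48 for *Mt2*, while it was -0.60 for the first *Mt1* probe (adjusted p from 0.618 to 0.970 by limma). Since the list mean itself differed between most arrays of the 2 genotypes, the shares of genotype and hypoxia genes cannot be told apart in that fit.

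The other responses were less uniform between genes or smaller in their medians. Of 9 NRF2 targets, which answer to oxidative stress, 6 were lower and 3 higher in the mean, with a median log2 difference of -0.09, and *Hmox1*, one of its 3 genes of highest signal beside *Txnrd1* (-0.23) and *Srxn1* (-0.24), differed by -1.16 (adjusted p = 0.103 by limma). Of 6 genes of the glucocorticoid response 2 were lower and 4 higher, with a median of 0.14. Those of highest signal were *Per1* (-0.91, adjusted p = 0.0851 by limma), *Tsc22d3* (0.26) and *Fkbp5* (0.53). All 10 genes of the unfolded protein response had a lower mean in βUCP2Tg islets, with a median of -0.27, and those of highest signal, *Hsp90b1*, *Hspa5* and *Creld2*, differed by -0.14, -0.22 and -0.31. By limma 0 genes of these 3 lists were called. At an unadjusted p under 0.05, which 14.1% of all probes reached as lower and 10.6% as higher, 2 of the 12 probes of the NRF2 list were lower and 1 higher, 2 of the 10 of the glucocorticoid list were lower and 1 higher, and 9 of the 18 probes of the unfolded protein list were lower and 0 higher. The part of these genes in the values of the metallothioneins was not tested.

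Acinar cells, which surround islets and adhere to them, differed strongly between samples. The mean of 13 acinar genes was -0.44, 1.02, -0.07 and 3.54 on βUCP2Tg arrays 1 to 4. On WT arrays 1 to 4 it was 2.77, 3.75, 4.21 and 0.07. All 13 had a lower mean in βUCP2Tg islets (median -1.79). By limma 0 of their 17 tested probes were called, beside 0.189% of all probes called as lower. At an unadjusted limma p under 0.05, 0 were lower and 0 higher, beside 14.1% and 10.6% of all probes. With the acinar mean as a covariate, a setting chosen after seeing the data, the log2 difference was -0.69 for *Mt2*, -0.56 and -2.07 for the probes of *Mt1*, -0.67 for *Slc30a1* and -0.38 for *Slc39a6*. The mean of the endothelial list ran from 0.98 to 1.13 on the βUCP2Tg arrays and from 0.30 to 0.98 on the WT arrays, that of the macrophage list from 0.27 to 0.71 and from 0.31 to 1.03, and that of the α, δ and PP cell list from 4.42 to 4.54 and from 4.13 to 4.32. The mean of the duct list ran from -0.04 to 0.04 and from -0.30 to 0.47, and that of the fibroblast and stellate cell list from -0.22 to -0.08 and from -1.04 to 0.23. The part of these cells in the values of the 9 genes was not tested.

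**Figure D4:**
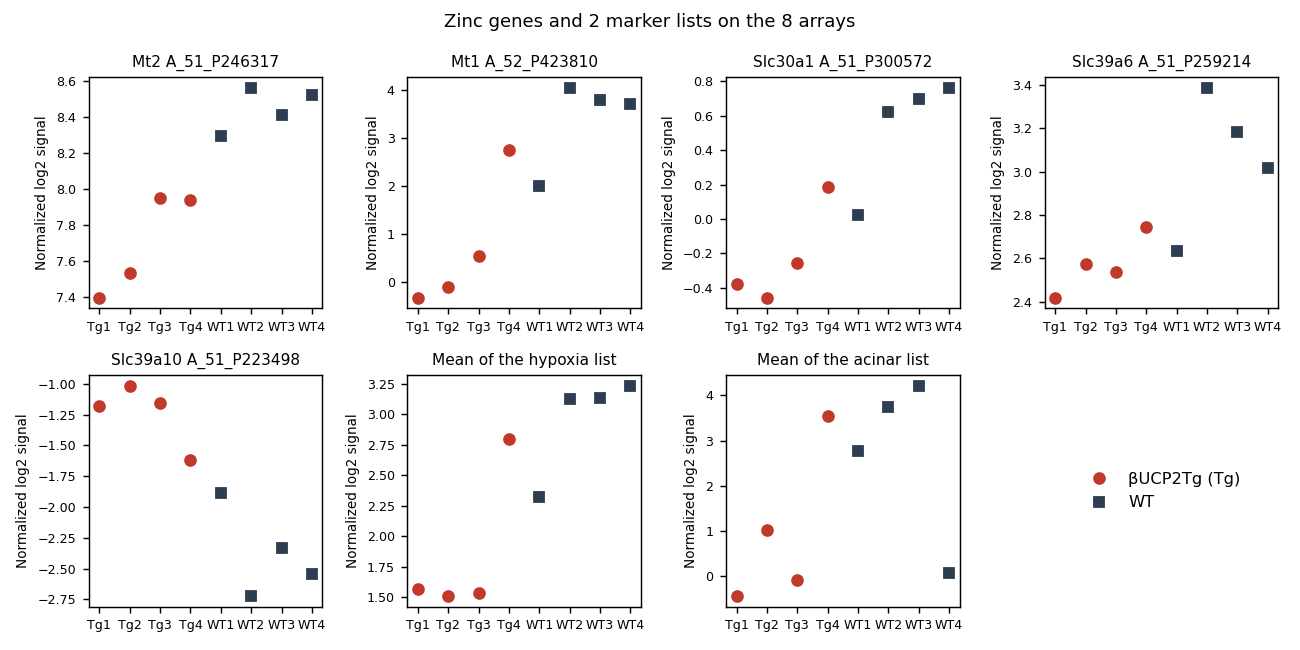
Normalized log2 signal of 5 zinc gene probes and the mean of the hypoxia and acinar lists on each of the 8 arrays (circles βUCP2Tg, squares WT; each panel has its own vertical scale). βUCP2Tg array 4 lies above WT array 1 for the second *Mt1* probe, *Slc30a1*, *Slc39a6* and both lists, and *Mt2* and *Slc39a10* show no overlap between genotypes.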

How the data were processed

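The authors scanned one-colour Agilent arrays and deposited, for each array, the intensity of every spot after Feature Extraction had subtracted the background (version 10.7.3.1 per the file headers, 9.1 in the submitters' processing notes; build mm9 in the headers). They also deposited a GeneSpring table of normalized log2 values, used here for all 8 samples. Set against the scanner intensities, at least 99.9% of probes per array lay within 0.01 of log2 intensity minus a constant of that array. The table's fold changes and p values between groups were not used.

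Control probes were left out, and probes well above background on at least 4 of 8 arrays (at least 50% of a probe's spots) entered limma 3.58.1 (R 4.3.3), and p values were adjusted over all 35363 by Benjamini-Hochberg. For single values, exact permutation tests over samples were run, two-sided. The fit was tested on simulated data. Where 1 value stands for a gene, it is that of its probe with the highest mean. The 9 genes, the other zinc genes, the response and cell type lists and the tests were chosen with earlier results of these data known. Named were all 9 genes, *Slc30a8*, *Slc39a10*, the 5 other-zinc genes of smallest p on any of their probes, *Slc30a4* and *Slc39a4* (chosen after their values were seen), the genes of highest signal in a list where a result turned on it, and the 5 genes most like *Mt1* and *Mt2*. Promoter windows came from RefSeq (GRCm38.p6) and 7 of the 9 genes had one. Alternatives were no filter, filters at all 8 arrays or at 1, quantile normalization, and 75th-percentile scaling on the probes well above background throughout. Others were scanner values without outlier spots, normexp with an offset of 50, a floor at a signal of 5 and Student's t-test. An intensity trend, 2-fold or no fold limit, gene means, a replicate block and left-out arrays were also run. The list means as covariates were chosen after seeing the data. Precision is limited by the number of arrays, 4 per group. Figures used matplotlib 3.10.9 (Python 3.11.15).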

Additional observations from a re-analysis of the deposited data

Results flagged for a closer look

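Over 70 sets of 4 arrays, 8 had an array that lay far from the other 3 of its genotype. Chance puts about 1 in 20 past the limit (3.5 sets). The sets were read on the same 8 arrays and are not independent, so that 8 cannot be weighed against 3.5. The gap to the nearest array, as a share of the range of the 4, is given for each of the 8. For the *Mt1* probe A_52_P423810, WT array 1 was at 2.01 against 3.71 to 4.06 on the other WT arrays (0.832). For the *Mt1* probe A_66_P111660, βUCP2Tg array 4 was at 7.71 against 7.99 to 8.04 (0.855). For the *Mtf1* probe A_55_P2715466, WT array 4 was at -1.33 against -1.48 to -1.47 (0.912). For *Slc30a7*, WT array 1 was at 0.61 against 0.77 to 0.80 (0.833). The mean of the hypoxia list was 2.80 on βUCP2Tg array 4 against 1.51 to 1.57 (0.954), and 2.32 on WT array 1 against 3.12 to 3.23 (0.882). The mean of the NRF2 list was 2.46 on βUCP2Tg array 4 against 2.67 to 2.70 (0.861). The mean of the duct list was -0.30 on WT array 1 against 0.44 to 0.47 (0.959).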

How the results depend on the processing

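The number of arrays limits these values. Over all probes the calls numbered 20 with no filter. There were 221 with a filter at all 8 arrays and 40 with a filter at 1 array. They numbered 810 under normexp, 240 with the floor, 307 with an intensity trend and 91 at 2-fold. Student's t-test called 22 with adjustment and 2788 without it. Without WT arrays 1 and 3 there were 278, and without βUCP2Tg array 4 and WT array 1 there were 5573. With the acinar covariate there were 22 and with the hypoxia covariate 6. With 1 array left out there were from 8 to 3807 (3807 without WT array 1, 1411 without βUCP2Tg array 4). Of the 15 probes of the 9 genes, 3 were called under normexp and 3 by the unadjusted t-test (2.29% and 7.88% of all probes). With an intensity trend 1 was called (0.868% of all probes), and without both arrays 4 were (16.2%). With 1 array left out from 0 to 4 were called (from 0.0228% to 10.9% of all probes). Under each of the other settings 0 were called. Of the 20 other zinc genes, 1 was called with the filter at all 8 arrays (0.697% of all probes). With the trend and without WT arrays 1 and 3 it was also 1 (0.868% and 0.814% of all probes). Under normexp and without both arrays 2 were called (2.29% and 16.2%), and by the unadjusted t-test 3 (7.88%). With 1 array left out from 0 to 2 were called. Of the response genes, 1 was called with the filter at all 8 arrays, with the floor (0.679% of all probes) and with the trend. Without WT arrays 1 and 3 there were 2, and under normexp 12 (2.29% of all probes). By the unadjusted t-test 16 were called (7.88%), without both arrays 22 (16.2%), and with 1 array left out from 0 to 17. The counts for other zinc and response genes are of genes, while the shares are of probes. The causes were not tested. Same-numbered arrays did not pair (r from -0.24 to 0.44), and the fit with the replicate block called 15 probes in all and 0 of the 15 probes of the 9 genes.

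Values near 0 changed sign. With 1 array left out, *Slc30a7* ran from -0.059 to 0.0074, *Slc39a14* from -0.035 to 0.053 and *Slc30a8* from -0.12 to 0.033. *Slc30a7* was at 0.0074 without βUCP2Tg array 2, 0.0038 without WT array 2 or 4 and 0.027 with the hypoxia covariate. *Slc39a14* was at 0.0070 under quantile normalization and at 0.0053, 0.023, 0.053 and 0.0074 without βUCP2Tg array 3, βUCP2Tg array 4, WT array 4 and both arrays. *Slc30a8* was at 0.080 under quantile normalization and at 0.0033, 0.033, 0.0062 and 0.085 without βUCP2Tg array 4, WT array 1, WT array 4 and both arrays. With the hypoxia covariate, *Mtf1* A_52_P236072 was at 0.041 and *Slc30a5* A_55_P2580802 at 0.16. *Mt1*, *Mt2*, *Slc30a1*, *Slc39a6* and *Slc39a7* kept their sign under all settings run.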

Other observations

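Among 16483 genes measured on all 8 arrays, those whose deviations from the group means were most like those of *Mt1* (A_66_P111660) were *Frs3*, *Nr1d1*, *Nudcd1*, *Pde1b* and *Igf2r* (Pearson r from 0.952 to 0.984 over 8 arrays), with log2 differences of 0.17, -0.13, -0.10, 0.29 and -0.60. Those most like *Mt2* were *Thrsp*, *Tcf7l2*, *Lat2*, *Cog8* and *Grk3* (r from 0.931 to 0.955), with log2 differences of -0.35, 0.15, -0.74, 0.13 and -0.28. The lists of 5 share no gene. These arrays share their RNA and scaling between genes, and with 8 arrays and so many genes such values of r are a description only.

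Within the 9 genes, the deviations of *Slc30a1* followed those of the *Mt1* probe A_52_P423810 (r = 0.93 over 8 arrays) and less those of *Mt2* (r = 0.67), and those of *Mt2* followed the same *Mt1* probe (r = 0.77). The *Mt1* probe A_66_P111660 followed neither *Mt2* (r = -0.09) nor *Slc30a1* (r = -0.06). These are descriptions over arrays on which βUCP2Tg array 4 and WT array 1 stand apart.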
